A study of Mus musculus with 7 samples.

Results

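The BAF complex (the mammalian SWI/SNF chromatin remodeller) was followed through its subunit genes *Smarca4*, *Smarca2*, *Smarcb1*, *Smarcc1*, *Smarcc2*, *Smarcd1*, *Smarcd3*, *Arid1a*, *Actl6a* and *Dpf2*. These 10 genes were taken by name, and each symbol was matched to its Ensembl gene among the 29267 genes of the expression tables. RNA-seq (poly(A)-selected mRNA) was available for 7 libraries of mouse cells, 1 for each group. Mouse embryonic fibroblasts of the OG2 line carry a transgene in which the *Oct4* promoter, without its proximal enhancer, drives green fluorescent protein (GFP), so that cells switching on the pluripotency gene *Oct4* (*Pou5f1*) become fluorescent. The fibroblasts received c-Myc, Klf4, Sox2 and Oct4 on retroviral vectors and were reprogrammed either in serum-containing mES medium with LIF and vitamin C or in 5C, a chemically defined medium with N2 supplement, bFGF, LIF and vitamin C.

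On day 15 the cells were sorted on GFP, which gave an Oct4GFP+ and an Oct4GFP- group for each medium (mES-Oct4GFP+ and mES-Oct4GFP-, 5C-Oct4GFP+ and 5C-Oct4GFP-). 5C-Oct4GFP+ cells were then carried for 20 passages in naive medium, which holds LIF and the inhibitors CHIR99021 and PD0325901, or in primed medium, which holds bFGF and activin A. R1 ESCs-primed are cells of the mouse embryonic stem cell line R1 with 20 passages on their label, which were brought to the primed state on feeder layers of embryonic fibroblasts in primed medium and then maintained with CHIR99021 and IWR-1 in place of bFGF and activin A. They are the group without the OG2 reporter and the reprogramming viruses. The other 6 groups share both. Since a group was 1 library, no difference between groups has a replicate check, and the intervals given here cover counting error only. In bulk RNA, fewer cells of a type and less RNA per cell cannot be told apart.

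BAF complexes use the energy of ATP to slide or evict nucleosomes, and they open chromatin at enhancers and promoters. Each complex holds one of the exclusive ATPases Smarca4 (Brg1) and Smarca2 (Brm), a core with Smarcb1 and a Smarcc dimer, one Smarcd protein, and targeting subunits such as Arid1a and a Dpf protein. Embryonic stem cells are known for a form built on Smarca4, Smarcc1 and Smarcd1 that contains little or no Smarca2 and Smarcc2, whereas somatic cells use both members of these pairs.

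The promoter windows of the ATPase pair and of the Smarcc pair are shown because the results turn on the ratios within these 2 pairs. Each runs from 250 bases before to 50 bases after the gene's start in the RefSeq annotation of GRCm38.p6, is written 5′ to 3′ on the plus strand, on which all 4 genes lie, and has GC boxes (GGGCGG, searched on both strands) in capitals. The windows are chr9:21615919-21616218 for *Smarca4*, chr19:26604910-26605209 for *Smarca2*, chr9:110131774-110132073 for *Smarcc1* and chr10:128458986-128459285 for *Smarcc2*.
Smarca4: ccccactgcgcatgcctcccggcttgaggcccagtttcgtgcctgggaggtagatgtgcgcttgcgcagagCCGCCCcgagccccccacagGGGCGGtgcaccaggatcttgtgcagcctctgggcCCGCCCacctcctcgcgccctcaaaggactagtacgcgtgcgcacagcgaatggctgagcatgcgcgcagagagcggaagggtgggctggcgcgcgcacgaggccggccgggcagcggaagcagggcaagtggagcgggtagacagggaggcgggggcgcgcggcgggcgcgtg
Smarca2: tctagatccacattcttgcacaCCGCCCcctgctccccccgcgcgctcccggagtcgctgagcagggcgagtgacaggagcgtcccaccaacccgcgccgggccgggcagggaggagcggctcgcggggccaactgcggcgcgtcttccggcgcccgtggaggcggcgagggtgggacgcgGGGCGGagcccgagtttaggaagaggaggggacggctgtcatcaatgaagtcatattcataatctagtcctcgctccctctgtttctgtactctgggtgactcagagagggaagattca
Smarcc1: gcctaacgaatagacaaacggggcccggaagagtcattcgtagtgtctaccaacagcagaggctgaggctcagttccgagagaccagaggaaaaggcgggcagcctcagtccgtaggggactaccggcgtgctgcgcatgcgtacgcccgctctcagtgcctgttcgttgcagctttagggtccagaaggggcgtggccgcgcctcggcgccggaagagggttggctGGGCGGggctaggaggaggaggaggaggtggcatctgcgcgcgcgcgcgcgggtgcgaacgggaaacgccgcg
Smarcc2: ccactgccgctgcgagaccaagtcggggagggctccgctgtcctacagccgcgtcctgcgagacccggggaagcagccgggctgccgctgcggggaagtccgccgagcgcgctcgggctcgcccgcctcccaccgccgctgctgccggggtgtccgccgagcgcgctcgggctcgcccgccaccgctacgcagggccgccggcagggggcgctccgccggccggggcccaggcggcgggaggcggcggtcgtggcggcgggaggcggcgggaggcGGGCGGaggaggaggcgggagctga

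Windows were found for all 10 genes, and *Arid1a* had 2, so that 11 windows were searched. A GC box lay in 10 of the 11, *Dpf2* being the exception, against 35.7% of 32851 windows of the same length across the genome. The windows were rich in CpG, with 20 (*Dpf2*) to 48 (*Smarcc2*) CpG dinucleotides against a median of 7 over all windows. None of the 11 held the Myc-type E-box CACGTG, present in 7.15% of all windows, or the octamer ATGCAAAT bound by Oct4, present in 1.74%, on either strand. These matches describe letters in a 300-base window and say nothing on binding. The printed windows hold 3 GC boxes for *Smarca4*, 2 for *Smarca2* and 1 each for *Smarcc1* and *Smarcc2*.

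The expected counts summed to between 6108252 and 11496615 per library. Fibroblast genes, the markers of the starting cells (10 genes, among them *Col1a1*, *Prrx1* and *Postn*), summed to 734 and 516 TPM (transcripts of a gene per 1000000 transcripts) in the mES and 5C Oct4GFP- libraries, against 19.3 and 42.3 TPM in the Oct4GFP+ libraries, 18.9 TPM in the naive, 93.8 TPM in the primed and 256 TPM in the R1 ESCs-primed library. All 10 were at 1 TPM or more in mES-Oct4GFP-, and *Twist2* was listed at 0 in mES-Oct4GFP+ and in the naive library. Of 10 pluripotency genes, 7 were higher in GFP+ than in GFP- cells in mES medium and 9 in 5C, among them *Zfp42* at 337 against 1.31 and 219 against 14.1 TPM. In mES medium *Pou5f1*, *Sox2* and *Lin28a* were lower in GFP+ cells, *Lin28a* at 24.2 against 75.9 TPM, and in 5C *Sox2* was, at 459 against 679.9 TPM. *Pou5f1* itself stood at 3640.4 TPM in mES-Oct4GFP-. The tables do not separate viral from endogenous transcripts of the 4 factors.

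The ATPases were read first. *Smarca4* (ENSMUSG00000032187, chr9:21616169-21704230, plus strand, GRCm38), the ATPase of the stem cell complex, measured 131 TPM in mES-Oct4GFP- cells and 154 in 5C-Oct4GFP- cells, 94.0 in mES-Oct4GFP+ cells and 137 in 5C-Oct4GFP+ cells, and 83.0 in the naive, 153 in the primed and 156 in the R1 ESCs-primed library. Its 3 highest libraries, R1 ESCs-primed, 5C-Oct4GFP- and primed, could not be ordered by counting error. The naive and mES-Oct4GFP+ libraries were lowest, and the highest level was 1.87 times the lowest.

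*Smarca2* (ENSMUSG00000024921, chr19:26605050-26778322, plus strand), the alternative ATPase, measured 147 TPM in mES-Oct4GFP- cells and 105 in 5C-Oct4GFP- cells, 36.6 in mES-Oct4GFP+ cells and 30.6 in 5C-Oct4GFP+ cells, and 23.2 in the naive, 22.7 in the primed and 21.5 in the R1 ESCs-primed library. Both Oct4GFP- libraries stood above every other library, and the 3 lowest, naive, primed and R1 ESCs-primed, were not separated by counting error. Its range, 6.85-fold from lowest to highest, was the widest of the 10 genes.

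As a share of the 2 ATPases' TPM, *Smarca4* took 47.1% (exact 95% interval 45.7 to 48.5%) in mES-Oct4GFP- and 59.5% (57.9 to 61.1%) in 5C-Oct4GFP-. In the sorted GFP+ cells it took 72.0% (69.6 to 74.3%) in mES medium and 81.8% (80.3 to 83.1%) in 5C. The share was 78.2% in the naive, 87.1% in the primed and 87.9% in the R1 ESCs-primed library. The 2 primed libraries thus had the highest share of *Smarca4*, and mES-Oct4GFP- was the library in which *Smarca2* exceeded it in TPM. In expected counts, not divided by length, *Smarca4* was the higher there, at 3247 against 1908. The estimated lengths in that library were 5701 bases for *Smarca4* and 3015 for *Smarca2*.

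The ratio of *Smarca4* to *Smarca2* was 2.89-fold higher (interval 2.54 to 3.29) in mES-Oct4GFP+ than in mES-Oct4GFP-, and 3.05-fold higher (2.71 to 3.42) in 5C-Oct4GFP+ than in 5C-Oct4GFP-. Between the media the ratio was higher in the 5C library, by 1.75-fold (1.5 to 2.03) in GFP+ and by 1.65-fold (1.52 to 1.80) in GFP- cells. The fibroblast markers given above were likewise highest in the Oct4GFP- libraries, and their part in the *Smarca2* level was not tested. The marker sums also differed between the media in both GFP classes.

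The summed TPM of the 2 ATPases did not stay level. It was 278 in mES-Oct4GFP- cells and 259 in 5C-Oct4GFP- cells, 131 in mES-Oct4GFP+ cells and 168 in 5C-Oct4GFP+ cells, and 106 in the naive, 175 in the primed and 177 in the R1 ESCs-primed library. The higher sums of the Oct4GFP- libraries came with the higher *Smarca2*, while *Smarca4* was at most 1.39-fold higher there than in the GFP+ cells of the same medium.

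**Figure D1:**
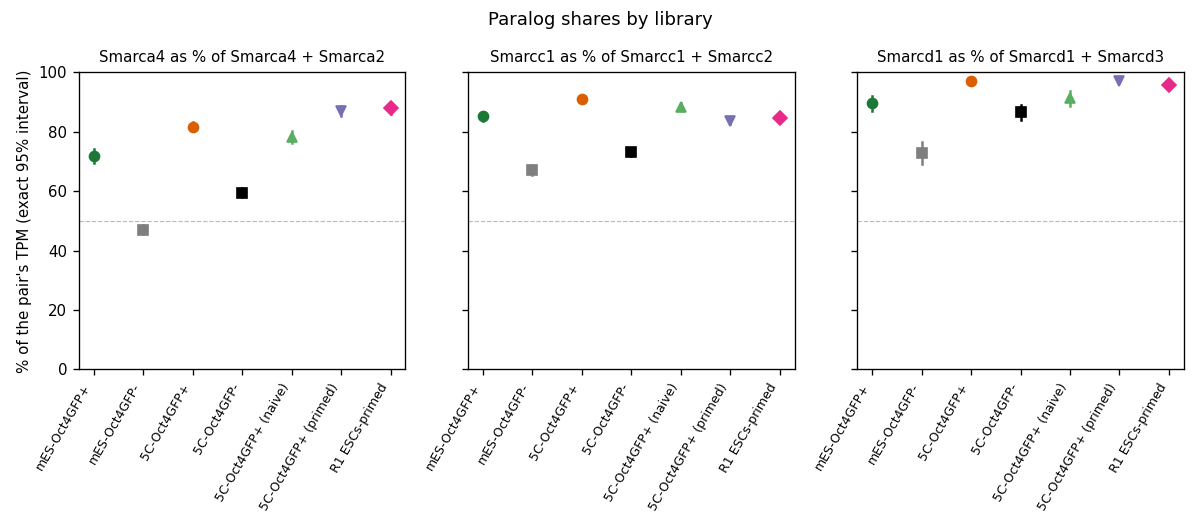
Each panel gives, for 1 pair of paralogs, the first gene's percent of the pair's summed TPM (vertical axis) in the 7 libraries (horizontal axis), with points for the value and lines for its exact 95% counting interval. In all 3 panels the Oct4GFP- library (squares) lies below the Oct4GFP+ library of its medium. *Smarca4* lies under the dashed 50% line in mES-Oct4GFP-, at 47.1% of the pair's TPM, a scale that divides by length.

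The tables estimate each gene's length from the isoforms in use, and for *Smarca2* this length was 3015 bases in mES-Oct4GFP- cells and 2773 in 5C-Oct4GFP- cells, 2968 in mES-Oct4GFP+ cells and 2823 in 5C-Oct4GFP+ cells, and 2908 in the naive library. It was 1596 bases in the primed and 1903 in the R1 ESCs-primed library. The annotation lists 17 transcripts of the gene, 3 of them 5703 to 5921 bases long, and 9 short ones of 692 to 1962 bases that begin at least 143.2 kb downstream of the first start, far from the window printed above. Over the 7 libraries the longest estimate of *Smarca2* was 1.89 times the shortest, against a median of 1.07 over 17733 expressed genes. In every library the estimate lay below 5703 bases, and the ATPase shares and sums given above rest on these lengths.

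Because TPM divides by length, the shorter estimate raised *Smarca2* relative to its reads in the primed libraries. Between the primed library and 5C-Oct4GFP+ the ratio was 0.739 (0.627 to 0.870) in TPM but 0.410 (0.348 to 0.482) in reads per 1000000 (RPM) not divided by length. Naive over primed was 1.02 (0.857 to 1.22) in TPM and 1.99 (1.67 to 2.38) in RPM. Which isoforms were read in each library was not analysed here.

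**Figure D2:**
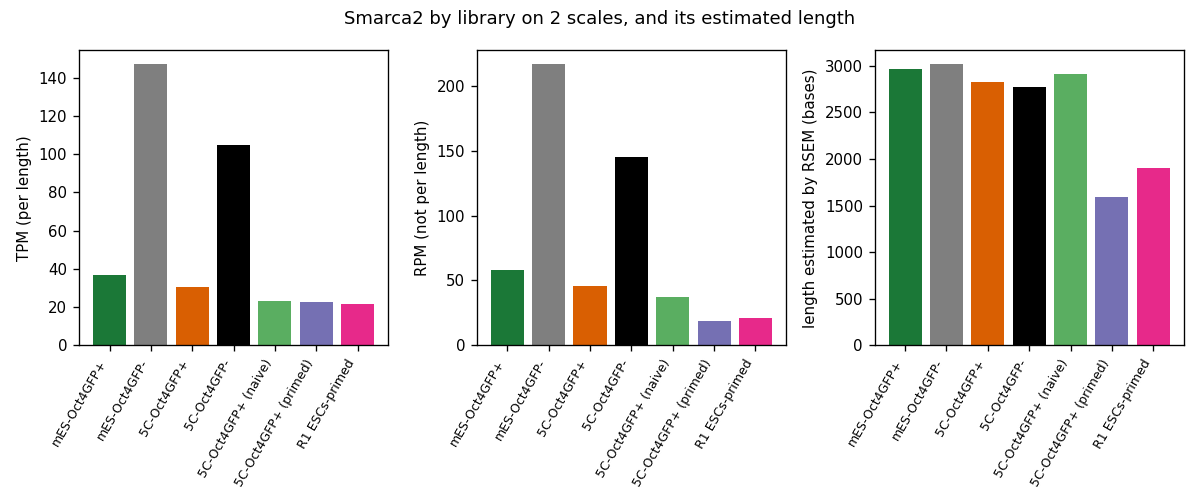
Bars show *Smarca2* in the 7 libraries as TPM, as RPM not divided by length, and as the length in bases that the tables give. The primed and R1 ESCs-primed bars are close to the naive bar in TPM (22.7 and 21.5 against 23.2) but lower in RPM, beside their shorter lengths of 1596 and 1903 bases.

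The core scaffold proteins Smarcc1 (BAF155) and Smarcc2 (BAF170) were read next. *Smarcc2* (ENSMUSG00000025369, chr10:128459248-128490482, plus strand) measured 39.9 TPM in mES-Oct4GFP- cells and 44.7 in 5C-Oct4GFP- cells, 21.2 in mES-Oct4GFP+ cells and 12.9 in 5C-Oct4GFP+ cells, and 16.0 in the naive, 25.4 in the primed and 29.5 in the R1 ESCs-primed library. The 2 Oct4GFP- libraries were highest, the 2 primed libraries came next, and 5C-Oct4GFP+ was lowest. Unlike *Smarca2*, *Smarcc2* was thus higher in the primed than in the naive library, at 1.59 times (1.4 to 1.81).

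*Smarcc1* (ENSMUSG00000032481, chr9:110117708-110240178, plus strand) measured 81.6 TPM in mES-Oct4GFP- cells and 122 in 5C-Oct4GFP- cells, 122 in mES-Oct4GFP+ cells and 130.0 in 5C-Oct4GFP+ cells, and 122 in the naive, 130.5 in the primed and 161 in the R1 ESCs-primed library. mES-Oct4GFP- was lowest and R1 ESCs-primed highest, and 5 libraries lay between 122 and 130.5 TPM. The GENCODE span of the gene given here begins upstream of the RefSeq window printed above. Of its distinct 50-base stretches, 3.26% also occur in the predicted gene *Gm7004*, and its level is uncertain to that extent.

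*Smarcc1* made up 85.2% (83.7 to 86.6%) of the pair's TPM in mES-Oct4GFP+ and 67.2% (65.3 to 68.9%) in mES-Oct4GFP-. In 5C the shares were 91.0% (90.0 to 91.8%) in GFP+ and 73.2% (71.7 to 74.7%) in GFP- cells. The naive, primed and R1 ESCs-primed libraries stood at 88.5%, 83.7% and 84.5%. The ratio of *Smarcc1* to *Smarcc2* was 2.82-fold higher (2.44 to 3.25) in GFP+ than in GFP- cells in mES medium and 3.68-fold higher (3.22 to 4.22) in 5C.

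The 2 ratios parted on conversion to the primed state. From 5C-Oct4GFP+ to the primed library, *Smarca4* over *Smarca2* was 1.5-fold higher (1.27 to 1.78) in TPM and 2.74-fold higher (2.32 to 3.25) in counts not divided by length, whereas *Smarcc1* over *Smarcc2* was 0.510 times the starting ratio (0.445 to 0.585). Between the primed and R1 ESCs-primed libraries neither ratio differed beyond counting error, at 0.929 (0.746 to 1.15) for the ATPases and 0.940 (0.833 to 1.06) for the Smarcc pair.

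The Smarcd proteins (BAF60) link the complex to transcription factors. *Smarcd3*, the BAF60c subunit known from heart and muscle (ENSMUSG00000028949, chr5:24590818-24624411, minus strand), was the scarcest member, at 19.7 TPM in mES-Oct4GFP- cells and 15.04 in 5C-Oct4GFP- cells, 8.98 in mES-Oct4GFP+ cells and 4.28 in 5C-Oct4GFP+ cells, and 8.01 in the naive, 3.75 in the primed and 6.15 in the R1 ESCs-primed library. Its expected counts ran from 40.9 to 139 per library. The Oct4GFP- libraries were highest, and neighbours among the other 5 libraries did not differ beyond counting error.

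*Smarcd1* (BAF60a, ENSMUSG00000023018, chr15:99702129-99713991, plus strand) measured 53.1 TPM in mES-Oct4GFP- cells and 97.5 in 5C-Oct4GFP- cells, 78.4 in mES-Oct4GFP+ cells and 141 in 5C-Oct4GFP+ cells, and 85.4 in the naive, 128 in the primed and 139 in the R1 ESCs-primed library. In either sorted class it was higher in 5C than in mES medium, by 1.80-fold (1.66 to 1.95) in GFP+ and by 1.84-fold (1.68 to 2.02) in GFP- cells. With the third paralog *Smarcd2* counted in, *Smarcd1* took 35.1% of the Smarcd TPM in mES-Oct4GFP- cells and 40.6% in 5C-Oct4GFP- cells, 46.7% in mES-Oct4GFP+ cells and 61.5% in 5C-Oct4GFP+ cells, and 61.2% in the naive, 69.9% in the primed and 72.5% in the R1 ESCs-primed library. In TPM *Smarcd2* held a larger share than *Smarcd1* in 3 libraries, at 51.9% and 53.2% in the mES and 5C Oct4GFP- libraries and 47.9% in mES-Oct4GFP+. In mES-Oct4GFP+ the intervals overlapped, at 73.1 to 84.0 TPM for *Smarcd1* and 74.1 to 87.2 TPM for *Smarcd2*. In expected counts, not divided by length, *Smarcd1* was the higher there, at 804 against 593. On that scale they stood at 1282 against 1276 in 5C-Oct4GFP- and 721 against 828 in mES-Oct4GFP-.

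Lengths also moved for *Smarcd3*, whose estimate lay between 1315 bases (naive) and 2309 bases (primed). Naive over primed was 2.14 (1.4 to 3.21) in TPM and 1.24 (0.818 to 1.87) in RPM, so the difference was within counting error on the second scale. The same held for naive over 5C-Oct4GFP+, at 1.87 (1.22 to 2.87) in TPM and 1.30 (0.845 to 1.99) in RPM.

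*Actl6a* (BAF53a, ENSMUSG00000027671, chr3:32706298-32726973, plus strand) is the actin-related subunit of dividing progenitors, replaced in neurons by *Actl6b*, and also belongs to other remodelling complexes. It measured 74.5 TPM in mES-Oct4GFP- cells and 119 in 5C-Oct4GFP- cells, 203 in mES-Oct4GFP+ cells and 249.8 in 5C-Oct4GFP+ cells, and 260.4 in the naive, 202 in the primed and 204 in the R1 ESCs-primed library. The 2 Oct4GFP- libraries were lowest, and R1 ESCs-primed, mES-Oct4GFP+ and primed were not separated by counting error. A list of 12 cell-cycle genes summed to 1218 TPM in mES-Oct4GFP- and 2638 TPM in 5C-Oct4GFP-, below the 3417 to 3869 TPM of the other 5 libraries. All 12 were higher in GFP+ than in GFP- cells in mES medium, and 10 were in 5C. There *Mki67*, at 90.8 against 158 TPM, and *Pcna*, at 473 against 486 TPM, were lower in GFP+ cells. The part of cycling cells in the *Actl6a* level was not tested.

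*Arid1a* (BAF250a, ENSMUSG00000007880, chr4:133679008-133756769, minus strand), the DNA-binding subunit that defines canonical BAF, measured 65.9 TPM in mES-Oct4GFP- cells and 83.6 in 5C-Oct4GFP- cells, 71.5 in mES-Oct4GFP+ cells and 102 in 5C-Oct4GFP+ cells, and 62.9 in the naive, 116 in the primed and 126 in the R1 ESCs-primed library. The naive and mES-Oct4GFP- libraries were lowest and did not differ beyond counting error, and the 2 primed libraries were highest. Naive over primed was 0.544 (0.518 to 0.570), close to the 0.544 (0.518 to 0.572) of *Smarca4*.

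*Smarcb1* (BAF47, the tumour suppressor subunit of the core, ENSMUSG00000000902, chr10:75896769-75921617, minus strand) stayed between 121 TPM in mES-Oct4GFP- and 175 TPM in 5C-Oct4GFP-, a 1.45-fold range. *Dpf2* (BAF45d, which reads acetylated histones, ENSMUSG00000024826, chr19:5896516-5913010, minus strand) stayed between 80.2 TPM in mES-Oct4GFP- and 108 TPM in R1 ESCs-primed, a 1.34-fold range and, in TPM, the narrowest of the 10. In RPM *Dpf2* ran from 88.3 in mES-Oct4GFP- to 140 in primed, and *Smarcb1* from 100 in mES-Oct4GFP- to 150 in 5C-Oct4GFP+. For *Smarcb1* in TPM the 4 highest libraries, 5C-Oct4GFP-, 5C-Oct4GFP+, R1 ESCs-primed and primed, each lay within counting error of the next.

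Set side by side, the range over the 7 libraries on the log2(TPM + 1) scale had a median of 1.19 over the 10 genes, against 1.18 over 21 other subunits and 1.55 over the 17733 genes with at least 1 TPM in a library. Folds from lowest to highest level were 6.85 for *Smarca2*, 5.26 for *Smarcd3*, 3.50 for *Actl6a*, 3.45 for *Smarcc2*, 2.65 for *Smarcd1*, 2.01 for *Arid1a*, 1.98 for *Smarcc1* and 1.87 for *Smarca4*. The members that varied most were the alternative paralogs and *Actl6a*.

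**Figure D3:**
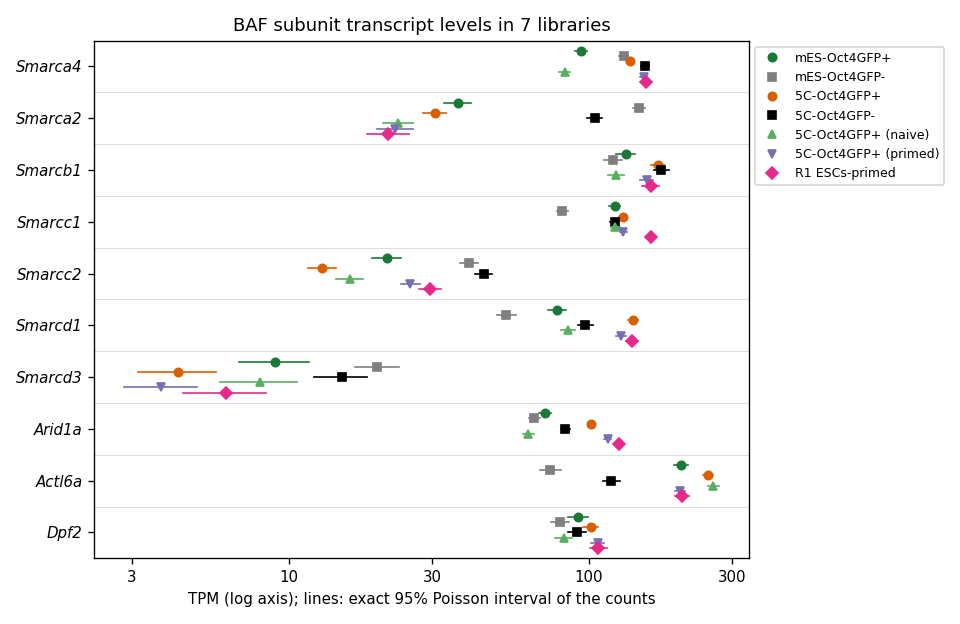
Points give the TPM of each gene (rows) in the 7 libraries on a log axis, and lines the exact 95% Poisson interval of its counts. The squares of the Oct4GFP- libraries lie to the right for *Smarca2*, *Smarcc2* and *Smarcd3* and to the left for *Actl6a*, while *Smarcb1* and *Dpf2* span 1.45-fold and 1.34-fold.

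Differences between libraries were then counted with 1 rule: a gene was called when its values of TPM + 1 differed by at least 2-fold and it reached 1 TPM in either library. The question of the first comparisons was what sets apart cells that had switched on the Oct4 reporter. Of mES-Oct4GFP+ against mES-Oct4GFP-, 17.9% of all genes tested were called higher and 28.8% lower. Of the 10 members *Actl6a* was called higher, at 2.73 times (2.47 to 3.02), and *Smarca2* and *Smarcd3* were called lower, at 0.249 (0.222 to 0.279) and 0.455 (0.328 to 0.627). The counts of 1 and 2 members were thus not above these shares of all genes. The call of *Smarcd3* was lost in FPKM, after rescaling the libraries by median ratios and in RPM, where its ratio was 0.580 (0.419 to 0.799). *Smarcc2* came next at 0.531 (0.466 to 0.604), and *Smarcc1* was 1.5-fold higher (1.41 to 1.59).

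In 5C medium, 8.45% of all genes were called higher in GFP+ cells and 22.6% lower. *Actl6a* was again called higher, at 2.10 times (1.95 to 2.27). *Smarca2*, *Smarcc2* and *Smarcd3* were called lower, at 0.292 (0.262 to 0.325), 0.290 (0.255 to 0.328) and 0.285 (0.197 to 0.410). The 3 lower calls made up more of the 10 members than the 22.6% of all genes, a gap of less than 1 member. After rescaling by median ratios the all-gene median of this comparison was -0.10 and the member calls numbered 1 higher and 3 lower. The median log2 difference of the members was 0.13 in mES medium and 0.03 in 5C, against -0.15 and -0.25 over all genes tested. *Smarcb1* did not differ beyond counting error in TPM in either medium, at 1.10 (0.998 to 1.22) and 0.975 (0.904 to 1.05). In RPM its ratio was 1.24 (1.12 to 1.36) in mES medium and 1.03 (0.954 to 1.11) in 5C.

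The next comparisons addressed the medium. Of 5C-Oct4GFP+ against mES-Oct4GFP+, 13.7% of all genes were called higher and 13.5% lower, and no member was called. *Smarcd1* at 1.80 (1.66 to 1.95), *Smarca4* at 1.46 (1.38 to 1.54) and *Arid1a* at 1.43 (1.35 to 1.51) were higher in 5C, and *Smarcc2* at 0.610 (0.523 to 0.711) and *Smarcd3* at 0.477 (0.315 to 0.717) were lower. The *Smarcd3* ratio is past 2-fold in TPM but not after 1 TPM is added. In TPM, 7 members were higher in 5C and 3 lower, and 7080 of the 15196 genes tested were higher. The median log2 difference was 0.22 for the members against -0.06 over all genes. *Dpf2*, counted as higher, was at 1.10 (1.002 to 1.21) in TPM but at 0.991 (0.901 to 1.09) in counts not divided by length.

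Of 5C-Oct4GFP- against mES-Oct4GFP-, 9.68% of all genes were called higher and 10.1% lower, and again no member was called. *Smarcd1* at 1.84, *Actl6a* at 1.60 (1.43 to 1.78), *Smarcc1* at 1.49 (1.41 to 1.58) and *Smarcb1* at 1.45 (1.33 to 1.58) were higher in 5C, and *Smarca2* was lower at 0.713 (0.663 to 0.767). In TPM, 8 members were higher in 5C and 2 lower, and 8317 of the 15859 genes tested were higher. The median was 0.29 for the members against 0.03 over all genes. The fibroblast marker sum was also lower in 5C-Oct4GFP-, and the cell-cycle sum higher, and their part in these differences was not tested.

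The last comparisons followed the conversion of 5C-Oct4GFP+ cells. A list of naive-state markers (8 genes, among them *Klf2* and *Tfcp2l1*) summed to 1375 TPM in the naive and 19.4 TPM in the primed library. A list of primed-state markers (8 genes, among them *Fgf5* and *Otx2*) summed to 188 and 1577 TPM. In the starting 5C-Oct4GFP+ library the lists summed to 1309 and 807 TPM. From there to the naive library, 5 of the 8 naive-state markers were higher and 3 lower. Of the naive library against 5C-Oct4GFP+, 10% of all genes were called higher and 17.5% lower, with no member called. *Smarca4*, *Smarcd1* and *Arid1a* were lower by similar amounts, at 0.605 (0.575 to 0.637), 0.607 (0.567 to 0.650) and 0.617 (0.587 to 0.648), and *Smarcb1* at 0.724 (0.667 to 0.785). *Actl6a* did not differ beyond counting error, at 1.04 (0.985 to 1.10). The members' median was -0.34 against -0.10 over all genes.

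Of the primed library against 5C-Oct4GFP+, 13.7% were called higher and 16.1% lower, and no member was called. *Smarcc2*, at 1.97 times (1.73 to 2.24), came closest. *Smarcc1*, *Smarcd3* and *Dpf2* did not differ beyond counting error in TPM. In RPM the *Dpf2* ratio was 1.24 (1.15 to 1.34), beside estimated lengths of 2460 bases in primed and 2106 in 5C-Oct4GFP+. Members lay on both sides, with a median of -0.06 against 0.06 over all genes.

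Between the naive and primed libraries, 16.7% of all genes were called higher in naive and 22.2% lower, and no member was called. *Smarca4* and *Arid1a* were lower in naive at 0.544, *Smarcc2* at 0.628 (0.552 to 0.713) and *Smarcd1* at 0.665 (0.621 to 0.713), and *Actl6a* was higher at 1.29 (1.22 to 1.37). The median was -0.35 for the members and -0.14 over all genes. These 3 comparisons share libraries and are not independent of each other.

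Each converted library was also set against a reference library. The naive and mES-Oct4GFP+ libraries differed in medium, in passages and in the GFP sort on day 15, which cannot be told apart. The R1 ESCs-primed reference differed in cell line and in lacking the OG2 reporter and the reprogramming viruses. Feeder cells and the maintenance medium are described for R1 cells. Whether the converted primed cells shared them is not stated in the study's methods. The parts of these cannot be told apart. Of naive against mES-Oct4GFP+, 2.49% of all genes were called higher and 6.27% lower, with no member called. *Smarca2* was lower at 0.632 (0.541 to 0.738) and *Actl6a* higher at 1.28 (1.19 to 1.37), and 4 members (*Smarcb1*, *Smarcc1*, *Smarcd1* and *Smarcd3*) did not differ beyond counting error. Of primed against R1 ESCs-primed, 2.3% were called higher and 5.09% lower, with no member called. There 5 members (*Smarca4*, *Smarca2*, *Smarcb1*, *Actl6a* and *Dpf2*) did not differ beyond counting error in TPM. The other 5 were lower in the primed library on that scale, the furthest being *Smarcd3* at 0.610 (0.399 to 0.943) and *Smarcc1* at 0.809 (0.774 to 0.846). The *Smarcd3* value rested on 52.7 against 40.9 expected counts, with estimated lengths of 2309 and 1801 bases. In RPM *Smarcd3* stood at 4.58 against 5.69, a smaller gap than the 3.75 against 6.15 in TPM. No interval is given here for the RPM ratio, so that difference is not shown to exceed counting error.

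**Figure D4:**
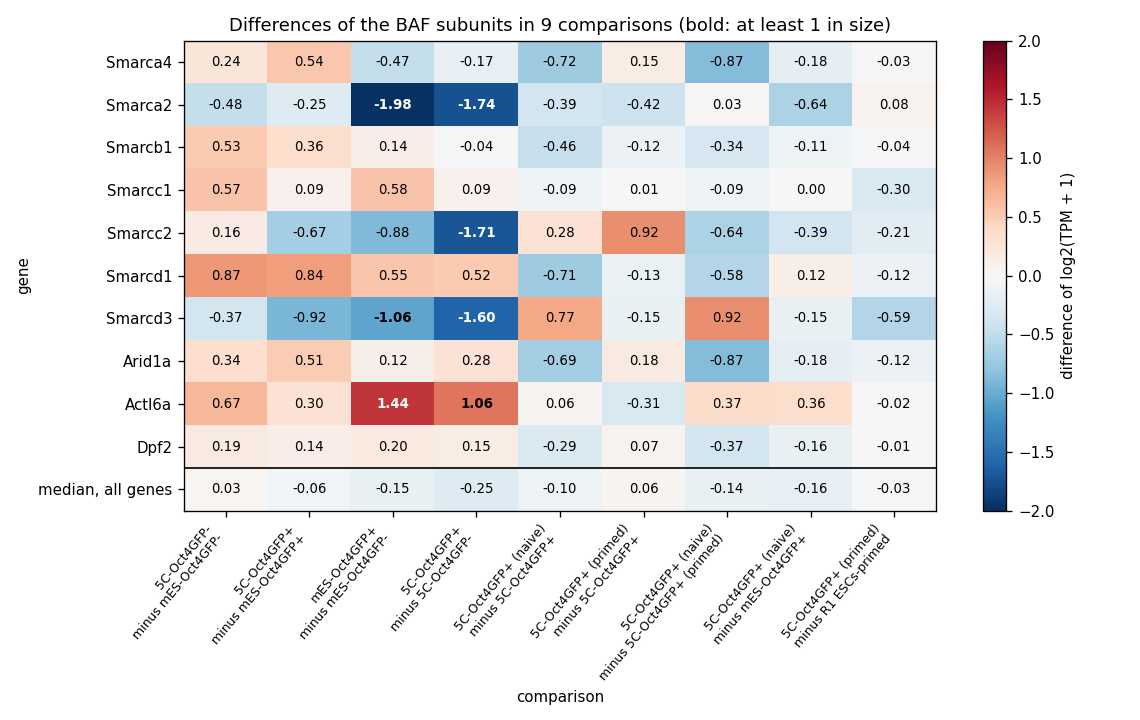
Cells give the difference of log2(TPM + 1) for each gene (rows) in the 9 comparisons (columns), red where the first library is higher, with the median of all genes tested in the last row. Bold values of at least 1 in size appear in the 2 columns of Oct4GFP+ minus Oct4GFP-, where *Smarca2* reads -1.98 and -1.74.

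The other subunits of BAF and of its relatives PBAF and ncBAF (21 genes) place these values in the family. *Dpf1*, the neuronal relative of *Dpf2*, was called higher in 5C than in mES medium in both sorted classes, at 49.0 against 8.94 TPM in GFP- and 26.8 against 10.7 TPM in GFP+ cells. Beside it *Dpf2* took 64.1% of the Dpf TPM in 5C-Oct4GFP- and 87.5% in mES-Oct4GFP-, although its own level differed by 1.14-fold (1.03 to 1.26). In the primed library *Dpf1* was called lower than in 5C-Oct4GFP+, at 7.53 TPM, and *Dpf2* took 92.9%.

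Naive against primed, where 16.7% of all genes were called higher and 22.2% lower, 2 of the 19 other subunits that could be tested were called higher (*Dpf1* and *Bicral*, an ncBAF subunit) and 6 lower (*Arid1b*, *Arid2*, *Phf10*, *Bcl7a*, *Bcl11a* and *Bcl11b*). The *Dpf1* ratio was 2.69 (2.07 to 3.50) in TPM but 1.78 (1.37 to 2.32) in counts not divided by length. The PBAF or ncBAF subunits *Pbrm1*, *Brd7*, *Brd9* and *Bicra* were not called. *Arid1b*, the paralog of *Arid1a*, measured 6.86 TPM in naive and 16.5 in primed, and the PBAF subunits *Arid2* and *Phf10* measured 16.5 and 61.8 TPM in naive against 52.5 and 163 in primed. *Bcl11a*, a zinc finger protein found in BAF complexes, measured 0.22 TPM in naive, 4.03 in 5C-Oct4GFP+, 17.3 in primed and 22.6 in R1 ESCs-primed. *Actl6b* stayed under 1 TPM in all 7 libraries.

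In the other comparisons 18 to 20 of these 21 genes could be tested, and between 1 and 5 were called. Higher and lower calls are given with shares of all genes. For 5C minus mES they were 2 and 0 (9.68%, 10.1%) in GFP- and 2 and 1 (13.7%, 13.5%) in GFP+ cells. For GFP+ minus GFP- they were 0 and 2 (17.9%, 28.8%) in mES and 0 and 1 (8.45%, 22.6%) in 5C. Against 5C-Oct4GFP+ they were 0 and 3 (10%, 17.5%) in naive and 3 and 2 (13.7%, 16.1%) in primed. Against the references they were 0 and 2 (2.49%, 6.27%) in naive and 0 and 1 (2.3%, 5.09%) in primed. *Bcl11a* was called higher in 5C than in mES medium in both sorted classes and *Dpf3* lower in 5C-Oct4GFP+. In GFP+ cells the *Bcl11a* ratio was 40.3 with an interval of 10.7 to 339, and mES-Oct4GFP+ held 2 counts. The *Dpf3* call rested on 4 against 7 counts, and not divided by length its ratio was 0.334 with an interval (0.0717 to 1.31) that holds 1. In GFP+ against GFP- cells, *Bcl11a* and *Bcl11b* were called lower in mES medium and *Bcl11b* in 5C. Against 5C-Oct4GFP+, the naive library had *Arid2* (0.463 in TPM and 0.532 in counts not divided by length), *Bcl7a* and *Bcl11a* called lower, and the primed library had *Phf10*, *Bcl11a* and *Bcl11b* called higher and *Dpf1* and *Bicral* lower. *Dpf3* and *Bcl7a* were called lower in naive than in mES-Oct4GFP+, and *Dpf1* lower in primed than in R1 ESCs-primed. That *Dpf3* call rested on 5 against 7 counts, with a ratio of 0.530 (0.133 to 1.94) not divided by length. That *Dpf1* ratio was 0.359 (0.270 to 0.479) in TPM and 0.690 (0.519 to 0.920) not divided by length, beside estimated lengths of 2311 and 1265 bases.

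**Figure D5:**
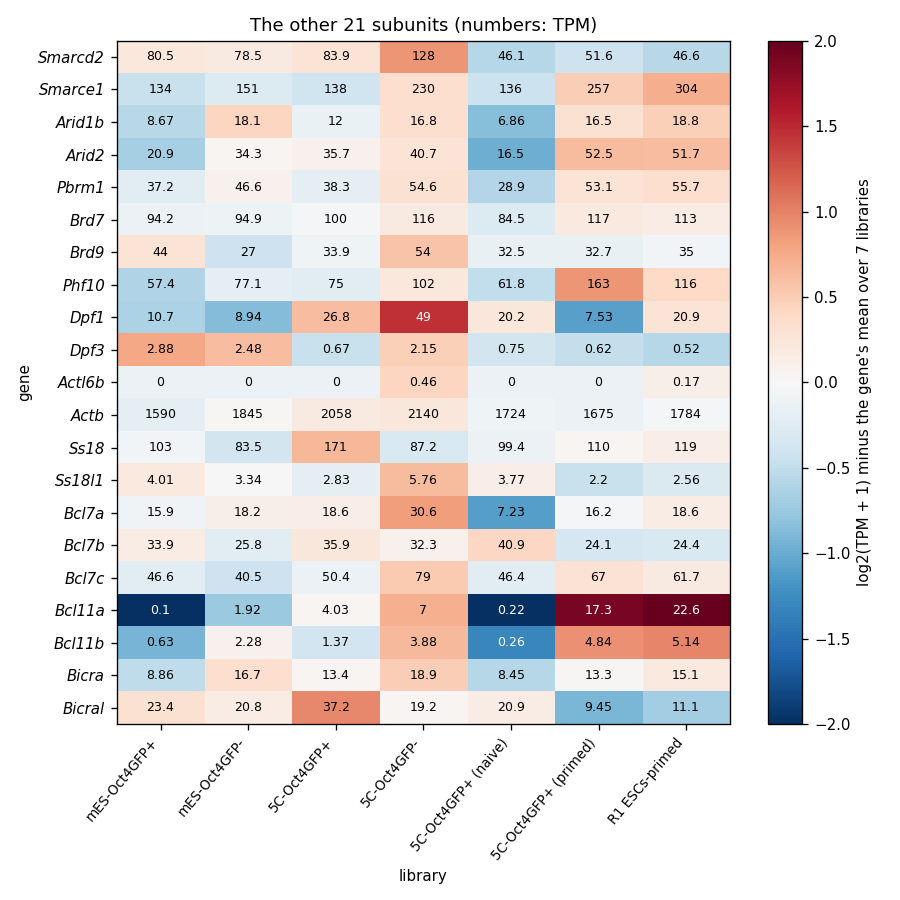
Numbers are the TPM of the other 21 subunits (rows) in the 7 libraries (columns), and colours the log2(TPM + 1) minus the gene's mean over the libraries. *Bcl11a* has the deepest colours, from 0.1 and 0.22 TPM in mES-Oct4GFP+ and the naive library to 17.3 and 22.6 TPM in the 2 primed libraries.

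Among all expressed genes, the 5 whose centred log2 profile over the 7 libraries lay nearest to that of *Smarca2* were *Cpeb4*, *Macrod1*, *H2-D1*, *Zc3h6* and *Adam15*, with root mean square distances of 0.156 to 0.173. Nearest to the mean profile of the 10 members were *Setd2*, *Rbm22*, *Gpr180*, *Zfp318* and *1110059G10Rik*, at 0.0568 to 0.0673. That mean ran from 5.90 in the naive to 6.44 in the 5C-Oct4GFP- library on the log2(TPM + 1) scale.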

How the data were processed

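RNA-seq libraries were made from poly(A)-selected mRNA of 7 groups, 1 library each. Per the labels, the authors mapped reads with Bowtie to mm10 and estimated gene levels with RSEM (versions not given in the sources used here). The deposited tables give, for each gene, an expected count, TPM (per 1000000 transcripts), FPKM and the estimated transcript length in bases. TPM was used as deposited for levels; the expected counts served for reads per 1000000 (RPM) not divided by length and, rounded to whole numbers, for counting intervals. With 1 library per group no test was run and no p-value is given. A gene was called when log2(TPM + 1) differed by at least 1 (2-fold) and TPM was at least 1 in either library. Intervals are exact at 95%: Poisson for a level, Clopper-Pearson for a ratio or share, and a conditional odds-ratio interval for a change of a paralog ratio. They cover counting error only. No source used here names molecular identifiers.

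Genes were matched by Ensembl identifier, with symbols and coordinates from GENCODE M21 (GRCm38). Promoters came from RefSeq GRCm38.p6. Shared stretches of 50 bases were searched in the annotated transcripts. Expected counts per library summed to 6108252 to 11496615. The members, lists and markers were chosen with earlier results of these data known. The text names all 10 members, each other subunit called in a comparison, and the 5 genes nearest in profile to *Smarca2* and to the members' mean, by root mean square distance of centred log2(TPM + 1). Alternatives were a pseudocount of 0.1, a minimum TPM of 5 or none, a fold of 1.5, FPKM, rescaling by median ratios and RPM. The calling rule was tested on simulated data. Computation used scipy 1.17.1, pandas 2.3.3 and numpy 2.4.6 under Python 3.11.15, and plots were drawn in matplotlib 3.10.9.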

Additional observations from a re-analysis of the deposited data

Results flagged for a closer look

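In TPM *Smarcc2* differed with the medium in opposite directions in the 2 sorted classes, by little in GFP- cells. In GFP+ cells its TPM in 5C was 0.610 of that in mES medium (12.9 against 21.2 TPM, interval 0.523 to 0.711), and in GFP- cells it was 1.12 times that in mES medium (44.7 against 39.9 TPM, 1.02 to 1.23). The GFP- ratio was 1.14 (1.04 to 1.26) in counts not divided by length. Rescaling by median ratios lowers it, with factors of 1.09 for 5C-Oct4GFP- and 1.05 for mES-Oct4GFP-. The GFP- interval in TPM begins near 1, and none was computed after rescaling. Whether the GFP- difference stays beyond counting error on that scale is therefore not shown. Each class had 1 library per medium, and the difference between the classes was not tested. The summed fibroblast markers were 734 TPM in mES-Oct4GFP- and 516 TPM in 5C-Oct4GFP-, with 3 of the 10 (*Thy1*, *Fbln2* and *Lum*) higher in 5C-Oct4GFP- and 7 lower, and their part was not tested.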

How the results depend on the processing

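Where no member was called with the 2-fold rule, a 1.5-fold rule called of the 10 members (and of all genes) 2 (39.0%) in 5C-Oct4GFP- minus mES-Oct4GFP-, 3 (46.5%) in 5C-Oct4GFP+ minus mES-Oct4GFP+, 4 (46.9%) in naive minus 5C-Oct4GFP+, 1 (48.5%) in primed minus 5C-Oct4GFP+, 4 (57.0%) in naive minus primed, 1 (24.3%) in naive minus mES-Oct4GFP+ and 1 (17.8%) in primed minus R1 ESCs-primed. A pseudocount of 0.1 called 1 member in 5C-Oct4GFP+ minus mES-Oct4GFP+ (33.6% of all genes) and 1 in naive minus primed (45.2%). RPM called 1 in primed minus 5C-Oct4GFP+ (29.3%), and rescaling by median ratios called 1 in naive minus primed (38.6%). In counts not divided by length the log2 change of *Smarca4* over *Smarca2* was 0.85 in 5C-Oct4GFP- minus mES-Oct4GFP-, 1.46 in primed minus 5C-Oct4GFP+ and -1.83 in naive minus primed, against 0.73, 0.59 and -0.91 in TPM. For *Smarcd1* over *Smarcd3* in naive minus primed it was -0.84 against -1.68. These 2 scales differ by the estimated lengths of *Smarca2* and *Smarcd3*.

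Of the 90 member differences, 90 kept their size within counting error under the smaller pseudocount, 75 in FPKM, 66 after rescaling and 68 in RPM, and 0, 4, 5 and 8 changed sign, with the largest shift, 0.93, for *Smarca2* in naive minus primed. Rescaling moved libraries by -0.12 to 0.12 on the log2 scale. Leaving out a replicate was not possible with 1 library per group. Among the 10 members depth limits *Smarcd3* most, with 40.9 to 139 expected counts. Among the other subunits called, *Dpf3* had 3 to 18 counts and *Bcl11a* as few as 2.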
